A study of Mus musculus with 8 samples.

Results

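A set of 42 genes of blood and lymph vessels was followed across mouse thyroid tissue, mouse lung tissue and mouse thyroid follicular cell organoids (TFCOs). The set was a list of gene symbols, and a member was any row of the deposited table that carried a listed symbol, there in capitals (PECAM1, CDH5, KDR and so on). All 42 symbols were found among the 16119 genes of the table. The members were grouped by what their proteins do in a vessel, as adhesion and junction proteins (7), receptors of the VEGF and angiopoietin systems with their partners (7), guidance and cell surface glycoproteins (7), transcription factors (5), genes of lymphatic and sinusoidal endothelium (5), genes of haemostasis, leukocyte capture and vessel tone (4), genes of capillary exchange (2) and G protein coupled receptors with a partner protein (5).

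TFCOs are spheres of thyroid epithelial cells that were grown from minced and digested thyroid in basement membrane extract. The medium held forskolin, R-spondin, the TGFβ inhibitor A83-01, EGF and FGF10. Bulk RNA sequencing gave 8 libraries in 4 groups of 2. Early TFCOs and late TFCOs (fewer than 4 and more than 6 passages) came from the same lines, mThy14 and mThy16, and thyroid tissue and lung tissue were sequenced directly. All samples were labelled wild type and C57BL/6, and the organoids were derived from surplus material of female mice, whose age is not given in the sources used here. Each TFCO line is a single derivation, so that the group holds 2 lines at 2 passages. The labels do not say whether the 2 pieces of a tissue came from separate animals, and p-values then measure only the spread between these samples.

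Endothelial cells line every blood and lymph vessel. They are held together by junctions built around VE-cadherin, and they depend on VEGF and angiopoietin signals through receptor tyrosine kinases. The thyroid is an endocrine gland in which each follicle is wrapped in fenestrated capillaries, whereas the lung has a particularly dense capillary bed for gas exchange. Organoid cultures have no blood flow and are grown for their epithelium, and the comparison asks how much RNA of vessel genes is still counted in them. In bulk RNA, fewer endothelial cells and less RNA per endothelial cell cannot be told apart.

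Many endothelial genes carry binding sequences of ETS factors, the family of Erg and Fli1, in their promoters. RefSeq promoters of GRCm38.p6 (250 bases before to the first bases after the start) matched 22 of the 42 members, with 28 promoters. The letters CAGGAA, on either strand, lay in 15 of these 28 promoters (53.6%) against 30.6% of all 32851 promoters. The letters CCGGAA lay in 1 of the 28 (3.57%) against 14.9% of all. The stretches before the start are shown for 3 members with a single promoter in that table, those with the largest fitted decrease among the members called lower in TFCOs than in thyroid, with matches to the searched letters in capitals. Eng lies on the plus strand (chr2:32646345-32646594), Tie1 on the minus strand (chr4:118489850-118490099) and Cd34 on the plus strand (chr1:194938571-194938820).
Eng: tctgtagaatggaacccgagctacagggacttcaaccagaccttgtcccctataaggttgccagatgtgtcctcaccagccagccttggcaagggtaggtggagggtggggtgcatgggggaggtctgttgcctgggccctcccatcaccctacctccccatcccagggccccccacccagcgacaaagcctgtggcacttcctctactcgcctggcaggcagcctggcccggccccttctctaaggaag
Tie1: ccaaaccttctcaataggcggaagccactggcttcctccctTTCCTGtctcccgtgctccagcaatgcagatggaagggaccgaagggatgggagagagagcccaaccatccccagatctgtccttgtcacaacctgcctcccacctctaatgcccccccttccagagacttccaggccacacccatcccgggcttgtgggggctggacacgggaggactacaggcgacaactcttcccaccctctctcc
Cd34: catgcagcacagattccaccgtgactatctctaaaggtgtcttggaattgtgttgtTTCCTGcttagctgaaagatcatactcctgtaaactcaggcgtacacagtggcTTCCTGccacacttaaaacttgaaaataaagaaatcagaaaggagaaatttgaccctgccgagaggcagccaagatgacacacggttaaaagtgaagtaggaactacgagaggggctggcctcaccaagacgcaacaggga
The capitals in Tie1 and Cd34 are CAGGAA read on the opposite strand, 209 bases before the start in Tie1 and 194 and 141 bases before it in Cd34. The stretch of Eng holds no match before the start. A match of letters is a description and was not tested as a binding site.

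Values are normalized counts, that is read counts divided by a size factor of each library. Between 9755081 and 16904865 reads per library fell on genes, and 100% of the values above 0 were whole reads (within 0.01 of a read). A count of 0 allows a level of up to 3 reads, which is between 2.02 and 4.22 normalized counts depending on the library. A split into 2 sets of libraries ran across the groups. A total of 44 genes had 50 or more counts in thyroid tissue 1 and every TFCO library and 0 in the lungs and thyroid tissue 2, and 16 genes showed the reverse. TFCOs share their set with thyroid tissue 1 only, and lung shares its set with thyroid tissue 2 only. Tissue labels were checked on epithelial genes. The summed counts of 6 thyroid follicular genes were 1544590 and 2213930 in the thyroid tissues and at most 288 in a lung tissue. Those of 6 lung epithelial genes were 1066400 and 517980 in the lung tissues and at most 20413 in any other library. Most of the sum outside lung was Ager, with 20265 and 15011 in the thyroid tissues and 2958 to 19366 in TFCOs. The lung tissues held 57060 and 23371 of Ager. The thyroid pieces also held skeletal muscle genes (summed counts of 50137 and 145859 for 7 genes in thyroid tissues 1 and 2, at most 2695 in any other library) and parathyroid and C cell genes (28509 and 61976 for 3 genes, at most 21.6 elsewhere).

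TFCOs held less RNA of the endothelial genes than either tissue. Summed over the 42 members, the 4 TFCO libraries had 3393, 2243, 1790.2 and 2425 normalized counts (here and below in the order early mThy14, early mThy16, late mThy14, late mThy16). Thyroid tissues 1 and 2 had 10929 and 29753, and lung tissues 1 and 2 had 95689.8 and 171996. The groups did not overlap. Sox17 alone made up much of the TFCO sums, and without it the TFCO libraries ranged from 1175 to 1531. For the median member, the median TFCO library held 6.23% of the mean of both thyroid tissues, against 98.3% for the median of all genes tested. This share was below 10% for 28 members, between 10% and 50% for 11 and higher for 3 (Sele 65.2%, Stab2 125% and Sox17 1581%). The mean leans to thyroid tissue 2, which held more than thyroid tissue 1 for 34 members. Against thyroid tissues 1 and 2 alone the share was 180% and 4.25% for Icam2, 132% and 19.8% for Sox7, and 6.94% and 16.2% for Cldn5. All 4 TFCO libraries lay below thyroid tissue 1 for 36 members (25.9% of all genes) and below thyroid tissue 2 for 39 (35.9%).

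**Figure D1:**
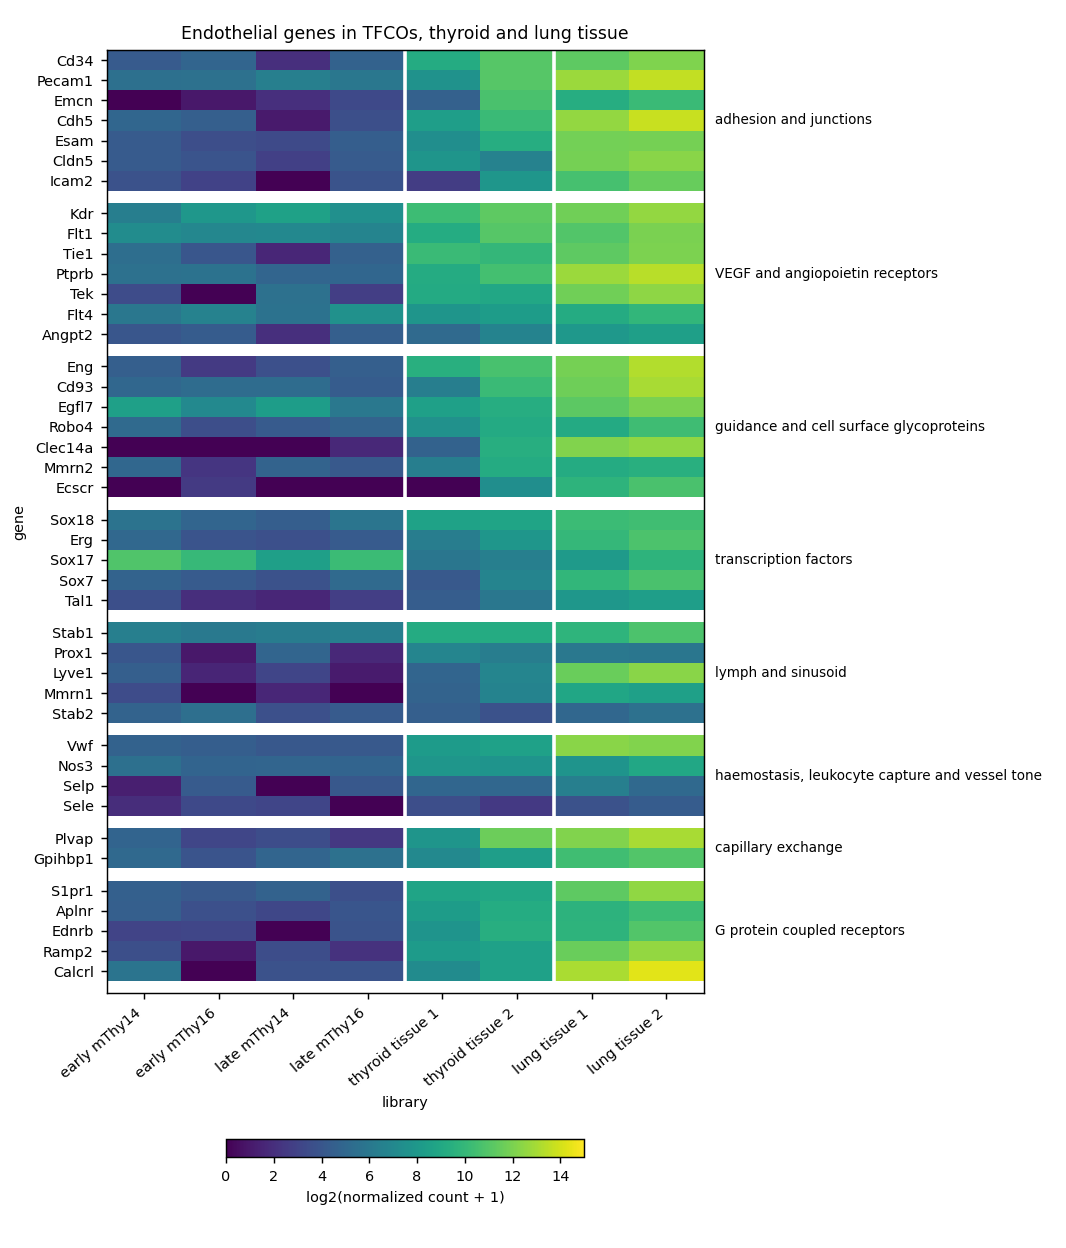
Level of each of the 42 endothelial genes (rows, grouped by role and ordered by thyroid level) in each of the 8 libraries (columns), as log2(normalized count + 1) on a colour scale from dark (0) to bright (15). The 4 TFCO columns are dark except for Sox17, Egfl7, Kdr, Flt1 and a few others, thyroid tissue 1 is darker than thyroid tissue 2 for many genes, and the lung columns are the brightest for most genes.

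Between TFCOs and thyroid tissue (limma on log2(normalized count + 1), 2 lines with their passages averaged against 2 tissues), 20 of the 42 members were lower and 1, Sox17, was higher at an adjusted p under 0.05. Of all 14703 genes tested, 3.05% were lower and 0.599% were higher. The fitted log2 fold change was negative for 40 members and positive for Sox17 and Stab2, with a median of -3.50, while the median over all genes was 0.05. All 42 members were among the genes tested (a normalized count of 10 reached in 2 libraries or more), but 9 of them passed that filter only through their tissue libraries, so that the counts over members are no independent support. All 4 TFCO libraries lay below both thyroid tissues for 35 members, where 17.3% of all genes did so, and above both for Sox17, where 17.2% of all genes did so. The number of calls rested on single libraries. Without thyroid tissue 2, which leaves the comparison within a single library set and assumes that the lone tissue varies like the other groups, 8 members were called (Tie1, Esam, Cldn5, Sox18, Vwf, Eng, Ptprb and Aplnr), 38 had a negative fold change and the median was -2.95, with 0.939% of all genes lower and 0.156% higher. Without thyroid tissue 1 there were 36 calls, but the share of all genes also went up, to 14.6% lower and 13.2% higher. The lung tissues enter only through the shared spread, and there were 11 calls without lung tissue 1 (0.918% of all genes lower and 0.143% higher) and 10 without lung tissue 2 (0.898% and 0.143%). Eng, Tie1, Ptprb, Aplnr and Vwf were called with any single library left out.

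**Figure D2:**
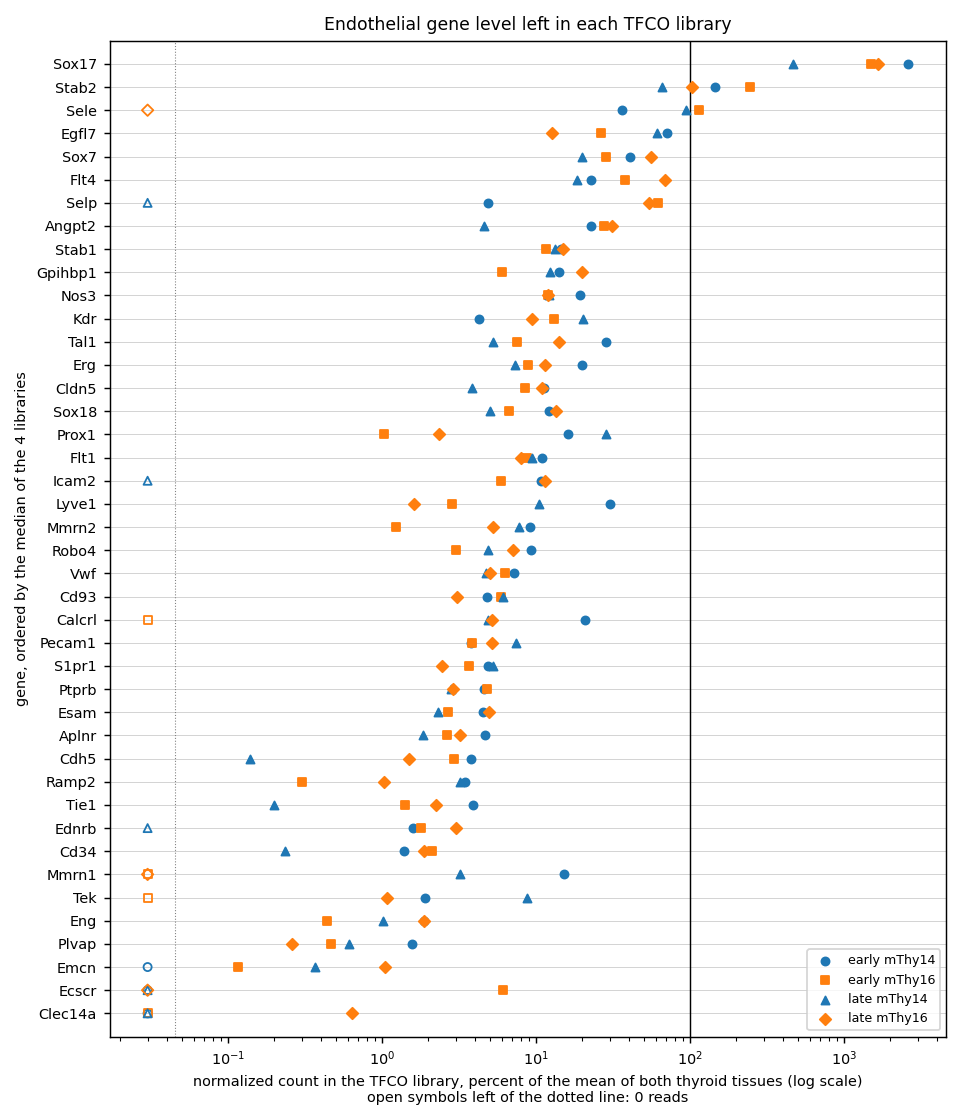
Normalized count of each endothelial gene in each TFCO library as a percent of the mean of both thyroid tissues (log axis, vertical line at 100), with circles for early mThy14, squares for early mThy16, triangles for late mThy14 and diamonds for late mThy16, and libraries with 0 reads as open symbols at the left. Sox17 lies far to the right of the line, Stab2 lies around it, and 28 of the 42 genes have a median below 10%.

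Among the adhesion and junction genes, 4 of 7 were lower in TFCOs than in thyroid tissue and 3 of 7 were lower in thyroid than in lung. The shares of all genes were 3.05% and 3.16%, and they apply to the calls in each group that follows. Cdh5, which encodes VE-cadherin, had 28.1, 21.8, 1.04 and 11.2 normalized counts in TFCOs, 329.9 and 1165 in the thyroid pieces, and 6050.2 and 13729 in the lung pieces (always in the order 1, 2). The 3 kinds of sample did not overlap, and late mThy14 held a single Cdh5 read. Cdh5 was lower in TFCOs than in thyroid (log2 fold change -5.78, standard error 0.74, adjusted p = 0.0108) and lower in thyroid than in lung (log2 fold change -3.88, standard error 0.74, adjusted p = 0.03). Esam, an adhesion molecule of endothelial tight junctions, had 18.3, 10.9, 9.37 and 20.1 in TFCOs, 165 and 644 in thyroid and 3605 and 3779 in lung. It was lower in TFCOs than in thyroid (log2 fold change -4.45, standard error 0.66, adjusted p = 0.0166) and lower in thyroid than in lung (log2 fold change -3.49, standard error 0.66, adjusted p = 0.0297). Cldn5, the main claudin of endothelial tight junctions, had 18.3, 13.9, 6.25 and 17.9 in TFCOs, 229 and 97.7 in thyroid and 3726 and 5179 in lung. Thyroid tissue 2 had less Cldn5 than thyroid tissue 1, unlike the other junction genes, and both lay below both lungs (log2 fold change -4.87, standard error 0.57, adjusted p = 0.00779). TFCOs were lower than thyroid (log2 fold change -3.42, standard error 0.57, adjusted p = 0.0252).

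Cd34, a sialomucin of capillary endothelium and of blood progenitors, had 18.3, 27.7, 3.12 and 24.6 in TFCOs, 572 and 2077 in thyroid and 2475 and 4308 in lung. TFCOs were lower than thyroid (log2 fold change -6.13, standard error 0.77, adjusted p = 0.0104), and the difference between thyroid and lung was not called. Pecam1, which encodes the junctional adhesion molecule CD31 of endothelium and platelets, had 43.6, 44.6, 85.3 and 60.4 in TFCOs, 196 and 2124 in thyroid and 6754 and 12605 in lung. No TFCO library reached the lower of the 2 thyroid tissues, but these differed by 10.8-fold from each other, and Pecam1 was not called in either comparison (log2 fold changes of -3.50 and -3.83, adjusted p = 0.121 and 0.0719). The remaining junction genes, the sialomucin gene Emcn and the adhesion gene Icam2, had between 0 and 13.4 normalized counts in any TFCO library. Thyroid tissue 1 held 22.9 of Emcn and 5.44 of Icam2, against 1682 and 230.5 in thyroid tissue 2. For Icam2 the TFCO libraries therefore overlapped with thyroid tissue 1, and neither gene was called against thyroid.

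Of the VEGF and angiopoietin receptors and their partners, 5 of 7 were lower in TFCOs than in thyroid tissue. In all 7 every TFCO library lay below both thyroid tissues (17.3% of all genes). Kdr, the main signalling receptor of VEGF-A, had 80.1, 244, 381 and 177 normalized counts in TFCOs, 1245 and 2511 in thyroid and 3457 and 6096 in lung. Flt1, the VEGF receptor that acts largely as a trap for its ligand, had 150.4, 119.8, 128 and 109.5 in TFCOs, 601 and 2137 in thyroid and 1943 and 3968 in lung. Both were lower in TFCOs (Kdr log2 fold change -3.21, standard error 0.47, adjusted p = 0.0157, Flt1 log2 fold change -3.16, standard error 0.64, adjusted p = 0.0482). Across the 18 alternative settings the call held in 14 for Kdr and in 6 for Flt1, with negative fold changes in all. Both genes were still counted in every TFCO library at 57 reads or more, and neither was called between thyroid and lung. Flt4, the VEGF-C receptor of lymphatic endothelium, had 60.4, 100, 48.9 and 182 in TFCOs, 229 and 299.6 in thyroid and 586 and 919 in lung. Its TFCO libraries held a median of 30.4% of the thyroid level and the decrease was not called (log2 fold change -1.60, standard error 0.57, adjusted p = 0.199).

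The angiopoietin receptor Tek, also known as TIE2, had 9.84, 0, 45.8 and 5.59 in TFCOs, 551 and 492 in thyroid and 3413 and 5707 in lung. Its coreceptor Tie1 had 40.8, 14.9, 2.08 and 23.5 in TFCOs, 1134 and 968 in thyroid and 2467 and 4259 in lung. The thyroid tissues were close to each other for both genes, and every TFCO library lay far below them (Tek log2 fold change -6.10, standard error 0.95, adjusted p = 0.0192, Tie1 log2 fold change -6.13, standard error 0.47, adjusted p = 0.00207). Tek was no longer called without early mThy14, thyroid tissue 2 or either lung tissue, although its log2 fold change was -6.18 without thyroid tissue 2. Ptprb, the endothelial receptor phosphatase VE-PTP that acts on Tek and VE-cadherin, had 46.4, 48.5, 28.1 and 29.1 in TFCOs, 570.4 and 1439 in thyroid and 6999 and 10840.4 in lung. It was lower in TFCOs than in thyroid (log2 fold change -4.58, standard error 0.50, adjusted p = 0.00754) and lower in thyroid than in lung (log2 fold change -3.26, standard error 0.50, adjusted p = 0.0176), which was the only such difference called between thyroid and lung in this group of genes. Angpt2, the angiopoietin that endothelial cells release themselves, ranged from 3.12 to 21.2 in TFCOs, from 33.7 to 103.3 in thyroid and from 250.5 to 341.1 in lung, and was not called in either comparison.

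Of the 7 guidance and cell surface glycoproteins, Eng and Robo4 were lower in TFCOs than in thyroid, and none was called between thyroid and lung. Eng, which encodes the TGFβ coreceptor endoglin and whose promoter is among the sequences given, had 21.1, 4.95, 11.4 and 21.2 in TFCOs, 709 and 1562 in thyroid and 3722 and 9938 in lung. TFCOs were lower than thyroid (log2 fold change -6.25, standard error 0.61, adjusted p = 0.00519), and this call held with each library left out in turn. Robo4, a receptor that stabilises vessels, had 33.7, 10.9, 17.7 and 25.7 in TFCOs, 182 and 544 in thyroid and 558 and 1318 in lung. TFCOs were lower than thyroid (log2 fold change -3.89, standard error 0.72, adjusted p = 0.0355). The Robo4 call held in 9 of the 18 alternative settings, with a negative fold change in all. By contrast Egfl7, a secreted endothelial matrix protein, had 356, 134, 306 and 63.7 in TFCOs, 348 and 662 in thyroid and 2356 and 4015 in lung. Early mThy14 lay above thyroid tissue 1, so the groups overlapped and no difference was called (log2 fold change -1.45, standard error 0.66, adjusted p = 0.296). In GENCODE M21 on GRCm38, 11.2% of the exonic bases of Egfl7 (chromosome 2, 26580014 to 26593120, plus strand) are shared with 4 other genes. The largest share, 7.37%, is with the same-strand gene Gm20532, so its reads could be split between them.

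Cd93, a transmembrane receptor of the same family as Clec14a, had 29.5, 36.6, 37.5 and 19 in TFCOs, 80.6 and 1155 in thyroid and 3329.6 and 8359 in lung. The thyroid tissues differed by 14.3-fold and Cd93 was not called against either TFCOs (log2 fold change -3.32, standard error 1.14, adjusted p = 0.185) or lung (log2 fold change -4.10, standard error 1.14, adjusted p = 0.0842). Ecscr, a regulator of endothelial migration, had 0, 4.95, 0 and 0 in TFCOs, 0 and 161 in thyroid and 824 and 1687 in lung. Ecscr was the only member at 0 in a tissue library, and the TFCO libraries at 0 could not be told from thyroid tissue 1. Clec14a, a C-type lectin-like glycoprotein of endothelium, was the only member with at most 3 reads in every TFCO library. It had 2 reads in late mThy16 and 0 in the others, against 22 and 739 reads in thyroid tissues 1 and 2. Mmrn2, a matrix ligand of Clec14a and Cd93, ranged from 3.96 to 29.5 in TFCOs, from 79.5 to 564.2 in thyroid and from 578 to 702.4 in lung. Neither Clec14a (adjusted p = 0.0545) nor Mmrn2 (adjusted p = 0.105) was called between TFCOs and thyroid, although their groups did not overlap.

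Of the 5 transcription factors, Sox18 was lower in TFCOs than in thyroid and Sox17 was higher. Sox18, a SOXF factor of blood and lymph vessel development, had 50.6, 27.7, 20.8 and 55.9 in TFCOs, 397 and 435 in thyroid and 1180.2 and 1376 in lung. The TFCO libraries lay well below both thyroid tissues, which were close to each other (log2 fold change -3.50, standard error 0.41, adjusted p = 0.00849). Sox17, a SOXF factor of arterial endothelium that is also a factor of endoderm, had 1862, 1068, 333 and 1186 in TFCOs, 57.7 and 84.8 in thyroid and 276 and 821 in lung. Every TFCO library lay above both thyroid tissues, and 3 of the 4 also lay above both lungs, with late mThy14 between the lungs. Sox17 was higher in TFCOs than in thyroid (log2 fold change 3.73, standard error 0.60, adjusted p = 0.0215) and was not called against lung (log2 fold change 0.98, standard error 0.60, adjusted p = 0.235). The call against thyroid was lost without thyroid tissue 2 (log2 fold change of 4.01, adjusted p = 0.0763) and without early mThy14 (3.11, adjusted p = 0.0825). Sox17 lies on chromosome 1 from 4490931 to 4497354 on the minus strand (GRCm38, GENCODE M21), and 16.8% of its exonic bases are shared with Gm37587 on the opposite strand. The counting setting for strand is not given in the sources used here, so reads of these genes may not be told apart.

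Sox7, the remaining SOXF factor, had 25.3, 17.8, 12.5 and 34.7 in TFCOs, 16.3 and 109 in thyroid and 952 and 1641 in lung. The TFCO libraries overlapped with thyroid tissue 1 (log2 fold change -0.98, standard error 0.93, adjusted p = 0.561), whereas thyroid was lower than lung (log2 fold change -4.84, standard error 0.93, adjusted p = 0.0311). Erg, the ETS factor that maintains endothelial identity, had 30.9, 13.9, 11.4 and 17.9 in TFCOs, 78.4 and 234 in thyroid and 1012 and 1739.8 in lung. It was lower in thyroid than in lung (log2 fold change -3.28, standard error 0.68, adjusted p = 0.0385), and between TFCOs and thyroid the groups did not overlap but the difference was not called (log2 fold change -2.90, standard error 0.68, adjusted p = 0.0719). Sox17 was also lower in thyroid than in lung (log2 fold change -2.75, standard error 0.60, adjusted p = 0.0433). Tal1, a factor of blood and endothelial progenitors, ranged from 2.08 to 11.2 in TFCOs, from 19.6 to 59.9 in thyroid and from 247.1 to 330.3 in lung and was not called in either comparison.

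Of the G protein coupled receptors and their partner, 4 of 5 were lower in TFCOs than in thyroid (3.05% of all genes). All TFCO libraries lay below both thyroid tissues for all 5 (17.3% of all genes). Calcrl, which forms the adrenomedullin receptor, had 53.4, 0, 12.5 and 13.4 in TFCOs, 145 and 372 in thyroid and 8906 and 20177 in lung. Ramp2, the membrane protein that gives Calcrl its specificity for adrenomedullin, had 11.2, 0.99, 10.4 and 3.35 in TFCOs, 287 and 364 in thyroid and 3103 and 6071 in lung. Both genes of this receptor were lower in thyroid than in lung (Calcrl log2 fold change -5.85, standard error 0.97, adjusted p = 0.0208, Ramp2 log2 fold change -3.74, standard error 0.74, adjusted p = 0.0341), and Ramp2 was lower in TFCOs than in thyroid (log2 fold change -5.78, standard error 0.74, adjusted p = 0.0109) while Calcrl was not called there (log2 fold change -4.52, standard error 0.97, adjusted p = 0.0545). Early mThy14 held 38 Calcrl reads and early mThy16 held 0. The annotation shares 33.4% of the exonic bases of Ramp2 with Vps25 on the same strand, which leaves its counts uncertain.

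S1pr1, the sphingosine 1-phosphate receptor that tightens the endothelial barrier, had 22.5, 16.8, 23.9 and 11.2 in TFCOs, 427 and 492 in thyroid and 2519 and 5784 in lung. The 3 kinds of sample were separate, and S1pr1 was lower in TFCOs than in thyroid (log2 fold change -4.60, standard error 0.53, adjusted p = 0.00822) and in thyroid than in lung (log2 fold change -3.06, standard error 0.53, adjusted p = 0.0239). Aplnr, the apelin receptor of sprouting and venous endothelium, had 21.1, 11.9, 8.33 and 14.5 in TFCOs, 299 and 603 in thyroid and 792 and 1229.5 in lung. Ednrb, the endothelin B receptor, had 7.03, 7.92, 0 and 13.4 in TFCOs, 216 and 668 in thyroid and 837 and 1979.8 in lung. Both were lower in TFCOs (Aplnr log2 fold change -4.90, standard error 0.56, adjusted p = 0.00781, Ednrb log2 fold change -6.07, standard error 0.91, adjusted p = 0.0176), and neither was called between thyroid and lung.

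Both genes of capillary exchange were lower in TFCOs. Plvap, which encodes the protein of the diaphragms that span capillary fenestrae, had 26.7, 7.92, 10.4 and 4.47 in TFCOs, 224 and 3203 in thyroid and 4592 and 8553 in lung. It was lower in TFCOs than in thyroid (log2 fold change -6.25, standard error 1.16, adjusted p = 0.0363), but the thyroid tissues differed by 14.3-fold and the call was lost without thyroid tissue 2 (adjusted p = 0.0692), late mThy14 or either lung tissue. Gpihbp1, which carries lipoprotein lipase to the capillary lumen, had 32.3, 13.9, 28.1 and 45.8 in TFCOs, 131 and 329 in thyroid and 1366 and 1983 in lung. It was lower in TFCOs (log2 fold change -2.86, standard error 0.58, adjusted p = 0.0468) and lower in thyroid than in lung (log2 fold change -2.98, standard error 0.58, adjusted p = 0.0313), and the call against TFCOs was lost with 5 of the 8 libraries left out in turn, namely early mThy16, late mThy14, thyroid tissue 2 and either lung tissue.

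Of the 4 genes of haemostasis, leukocyte capture and vessel tone, only Vwf was called. Vwf, the von Willebrand factor of endothelium and platelets, had 23.9, 20.8, 15.6 and 16.8 in TFCOs, 291 and 374 in thyroid and 5243 and 4638 in lung. Its replicates were close together, and it was lower in TFCOs than in thyroid (log2 fold change -4.05, standard error 0.39, adjusted p = 0.00514) and in thyroid than in lung (log2 fold change -3.90, standard error 0.39, adjusted p = 0.00461). Nos3, the endothelial nitric oxide synthase, had 43.6, 26.7, 27.1 and 26.8 in TFCOs, 235 and 214 in thyroid and 214 and 494 in lung. All TFCO libraries lay below both thyroid tissues without a call (log2 fold change -2.85, standard error 0.61, adjusted p = 0.0563), and thyroid and lung overlapped. In the annotation 32.3% of the exonic bases of Nos3 are shared with opposite-strand genes, 25.2% with Gm15587 and the rest with Atg9b. The selectins of activated endothelium were not called. Selp, which platelets also store, ranged from 0 to 17.8 in TFCOs, from 28.3 to 29.5 in thyroid and from 32.4 to 83.8 in lung, and Sele from 0 to 8.91, from 4.61 to 10.9 and from 12.6 to 18.9.

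Of the 5 lymphatic and sinusoidal genes, Stab1 was lower in TFCOs than in thyroid and Lyve1 was lower in thyroid than in lung. Lyve1, the hyaluronan receptor of lymphatic endothelium and of some macrophages, had 21.1, 1.98, 7.29 and 1.12 in TFCOs, 27.2 and 112 in thyroid and 3045 and 5198 in lung. It was lower in thyroid than in lung (log2 fold change -6.14, standard error 1.02, adjusted p = 0.0211), and it was not called between TFCOs and thyroid (log2 fold change -3.27, standard error 1.02, adjusted p = 0.151). Prox1, the factor that sets lymphatic identity, had 15.5, 0.99, 27.1 and 2.24 in TFCOs, 113 and 78.4 in thyroid and 63.7 and 57.3 in lung. Prox1 was the only member for which both thyroid tissues lay above both lungs (26.2% of all genes did so), without a call (log2 fold change 0.63, standard error 1.13, adjusted p = 0.755). Both mThy14 libraries held 11 or more Prox1 reads while the mThy16 libraries held 1 and 2.

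Stab1, a scavenger receptor of sinusoidal endothelium and macrophages, had 82.9, 66.3, 76 and 85 in TFCOs, 572 and 566 in thyroid and 856 and 1732 in lung. TFCOs were lower than thyroid (log2 fold change -2.87, standard error 0.45, adjusted p = 0.0201). Stab2, its relative that clears hyaluronan, had 25.3, 42.6, 11.4 and 17.9 in TFCOs, 21.8 and 12.9 in thyroid and 29.3 and 45.2 in lung. The TFCO values of Stab2 overlapped with those of both tissues, with no call (log2 fold change 0.36, standard error 0.87, adjusted p = 0.831). Mmrn1, a matrix protein of lymphatic endothelium and platelets, ranged from 0 to 9.84 in TFCOs, from 25.0 to 105.1 in thyroid and from 353.9 to 472.4 in lung, and was not called in either comparison.

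**Figure D3:**
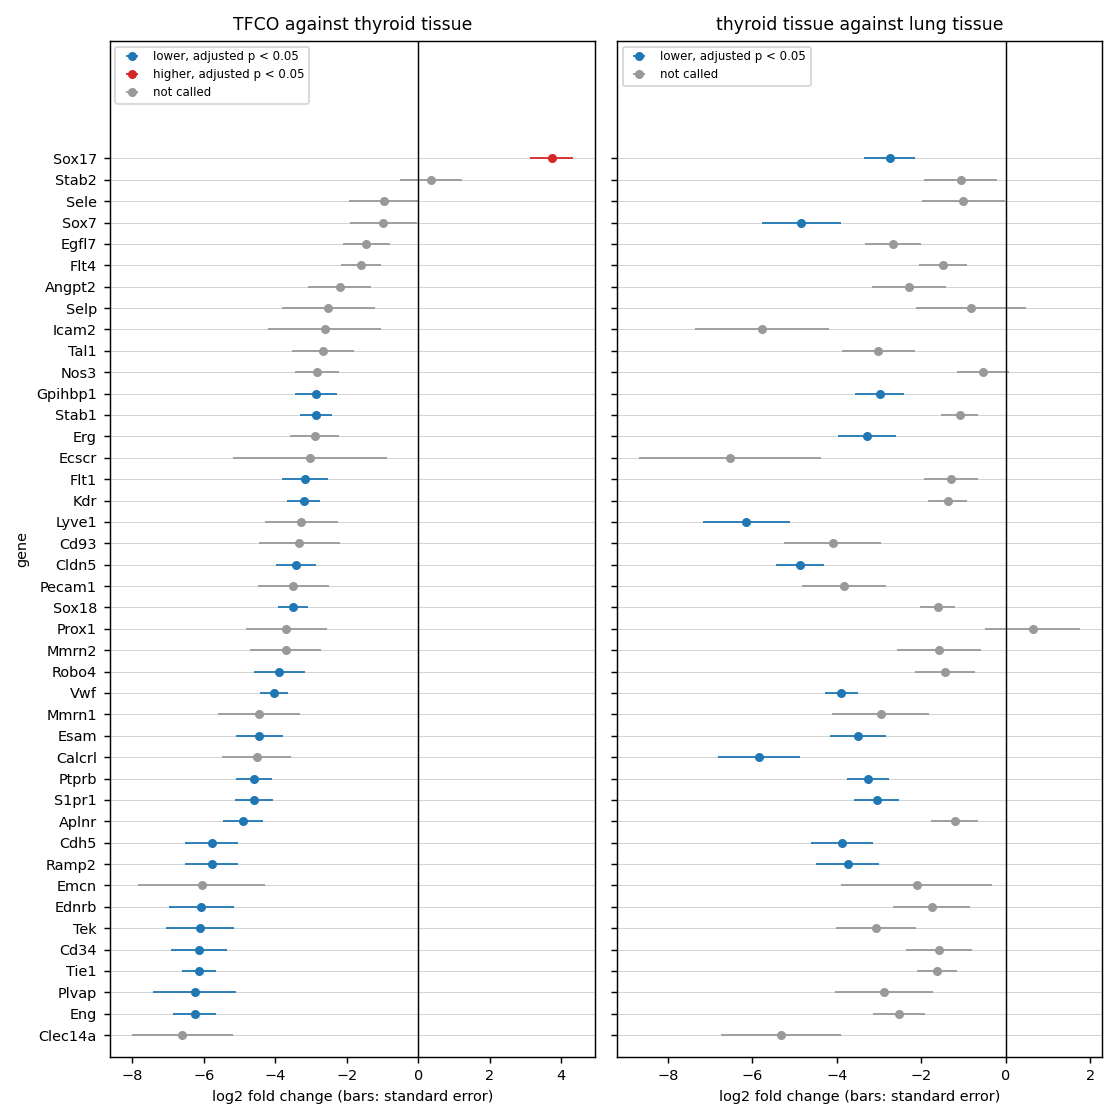
Fitted log2 fold change of each endothelial gene with its standard error, for TFCOs minus thyroid tissue (left) and thyroid tissue minus lung tissue (right), in the order of the left panel; blue points were called lower, the red point was called higher and grey points were not called. On the left 20 genes are blue and Sox17 is red, and on the right 13 are blue and only Prox1 lies above 0.

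Thyroid tissue held less RNA of the endothelial genes than lung. Of the 42 members, 13 were called lower in thyroid than in lung and 0 higher, where 3.16% of all genes were lower and 2.89% higher. The fold change was negative for 41 members, with a median of -2.82 against 0.03 over all genes, and both thyroid tissues lay below both lungs for 38 members (27.5% of all genes). The members called were Cdh5, Esam, Cldn5, Erg, Sox7, Sox17, Vwf, Lyve1, Ptprb, Calcrl, Ramp2, S1pr1 and Gpihbp1. This comparison uses the same thyroid libraries as that with TFCOs. Lists of other cell types were counted here too. Both thyroid tissues lay below both lungs for 12 of 12 leukocyte and 8 of 9 platelet genes, against 27.5% of all genes. They did so for 1 of 10 mural and 2 of 6 fibroblast genes. The part of these cell types in the members' difference from lung was not tested. Within the library set that lung shares with thyroid tissue 2, 5 members were called (Esam, Cldn5, Sox7, Vwf and Ptprb), 40 were negative and the median was -2.04, with 3.05% of all genes lower and 2.59% higher. Without thyroid tissue 2 there were 28 calls, and the share of all genes went up to 14.5% lower and 14.8% higher. With either lung tissue left out there were 0 calls by limma. At an unadjusted p under 0.05 there were then 25 members and 1764 of all genes without lung tissue 1, and 16 members and 1686 of all genes without lung tissue 2.

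The size of the difference between thyroid and lung varied by gene. The mean of both lungs was 59.4 times the thyroid mean for Lyve1, 56.3 times for Calcrl, 27.3 times for Cldn5 and 20.7 times for Sox7. It was 1.58 times for Nos3, 1.06 times for Emcn and 0.631 times for Prox1. Against thyroid tissue 1 alone it was 151 times for Lyve1, 100.4 times for Calcrl, 19.5 times for Cldn5, 79.4 times for Sox7 and 39.3 times for Emcn. Against thyroid tissue 2 alone the mean of both lungs was 36.9 times for Lyve1, 39.1 times for Calcrl, 45.6 times for Cldn5, 11.9 times for Sox7 and 0.535 times for Emcn. The value for Emcn thus lay above or below 1 depending on the thyroid tissue.

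The 2 thyroid tissues differed from each other in endothelial genes. Thyroid tissue 2 held more than thyroid tissue 1 for 34 of 42 members, against 47.3% of all genes, and the median log2 difference was 1.34 over the members and -0.07 over all genes. The ratio of thyroid tissue 2 to thyroid tissue 1 was 73.6 for Emcn, 42.3 for Icam2, 28.4 for Clec14a, 14.3 for Cd93 and for Plvap, and 10.8 for Pecam1. For 12 members it was within 1.5-fold, among them Tie1 (0.853), Tek (0.894), Nos3 (0.91), Stab1 (0.99), Sox18 (1.1), S1pr1 (1.15) and Vwf (1.29). The tissues lie in different library sets, and the summed counts of the skeletal muscle list (50137 and 145859), the adipocyte list (1725 and 6254) and the mural cell list (7418 and 13072) were also higher in thyroid tissue 2, while those of the fibroblast list were 22734 and 22730.1. Gene by gene, thyroid tissue 2 was higher for 7 of 7 muscle, 3 of 5 adipocyte, 6 of 10 mural and 5 of 6 fibroblast genes. The fibroblast gene that was lower there was Col1a1, with 7318 in thyroid tissue 1 and 3048 in thyroid tissue 2. The leukocyte list had 1029 and 1843, with 9 of 12 genes higher in thyroid tissue 2. The parathyroid and C cell list had 28509 and 61976, with 3 of 3 higher, and the platelet list had 256 and 247, with 4 of 9 higher. The part of the library sets and of these cell types in the members' difference was not tested. Lung tissue 2 held more than lung tissue 1 for 38 members (46.6% of all genes), with a median log2 difference of 0.78.

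Between TFCOs and lung tissue, 37 of the 42 members were lower and 0 higher, where 13.5% of all genes were lower and 9.83% higher. The members not called were Selp, Sele, Prox1, Stab2 and Sox17. The median log2 fold change was -7.37, and all 4 TFCO libraries lay below both lungs for 40 members (33.3% of all genes). These libraries never share a set. With the set as a term, which only the thyroid tissues inform, 10 members were lower and 0 higher (0.986% of all genes lower and 0.197% higher), 41 had a negative fold change and the median was -4.31. With either lung tissue left out the number of calls fell, for the members and over all genes. The median log2 fold change of the members was -6.82 without lung tissue 2 and -7.49 without lung tissue 1, and that of all genes was 0.04 in both.

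Few reads of the members remained in TFCOs. Of the 168 values of members in TFCO libraries, 15 were 0, and no member was at 0 in all 4 libraries. A total of 19 members reached 25 reads in at least 1 TFCO library, among them Sox17 (320 to 1325 reads), Kdr (57 to 366), Egfl7 (57 to 294), Flt4 (43 to 163) and Flt1 (98 to 123). Other genes that mark endothelium had between 31 and 82 reads per library for Pecam1, 26 and 49 for Ptprb, 2 and 29 for Tie1, 1 and 22 for Cdh5, 5 and 19 for Eng, 0 and 8 for Emcn and 0 and 2 for Clec14a. Markers of other cell types that share some of the members were counted beside them. The summed leukocyte list (12 genes) was 125, 146, 134 and 141 in TFCOs and 1029 and 1843 in thyroid, and the platelet list (9 genes) was 403, 310, 396 and 244 in TFCOs against 256 and 247 in thyroid. The fibroblast list (6 genes) was 228, 104, 80.1 and 115 in TFCOs with Lum at 0 in all 4 libraries, and the mural list (10 genes) was 2266, 2945, 2022 and 2770.1. In the platelet list Itga2b had 364, 145, 362 and 139 in TFCOs and 212 and 108 in thyroid. Pf4 had at most 1.04 in TFCOs, and 7.62 and 116 in thyroid. In the mural list Myh11 had 1103, 1668, 1069 and 1470 in TFCOs and 1206 and 668 in thyroid. Rgs5 had at most 21.8 in TFCOs, and 575 and 3870 in thyroid. All 4 TFCO libraries lay below both thyroid tissues for 1 of 9 platelet and 7 of 10 mural genes (17.3% of all genes). The part of these other cell types in the remaining counts was not tested.

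**Figure D4:**
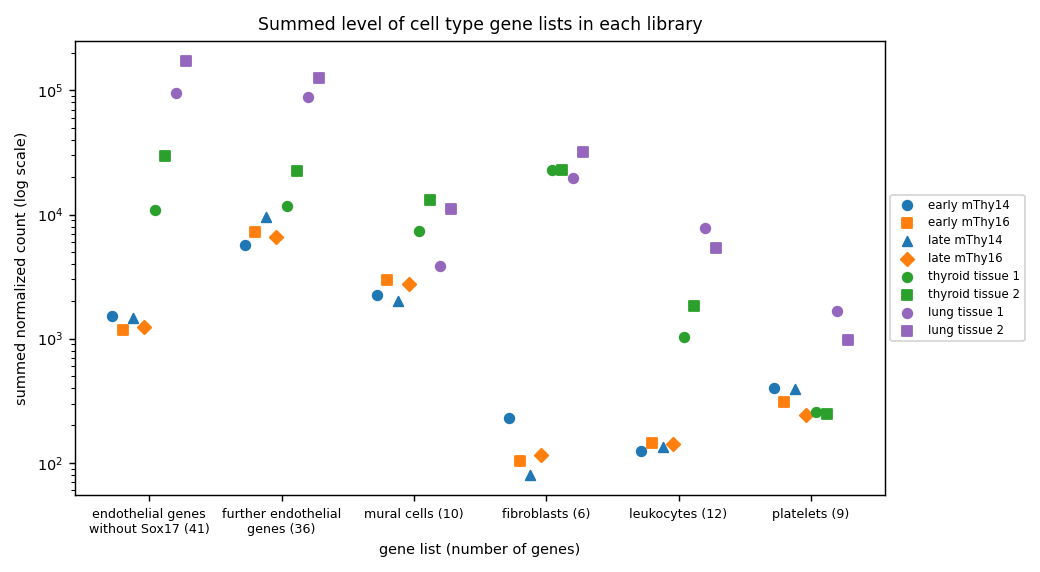
Summed normalized counts (log axis) of the endothelial genes without Sox17, of further endothelial genes and of mural, fibroblast, leukocyte and platelet gene lists in each of the 8 libraries, with a point for each library. The endothelial sums lie between 1175 and 1531 in TFCOs and at 10871 and 29668 in the thyroid tissues, the fibroblast sums fall further, and the platelet sums of TFCOs and thyroid overlap.

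Between late and early TFCOs of the same lines no member was called. At an adjusted p under 0.05, 0 of 42 members and 0% of all genes passed in either direction by limma, also with the line as a block and by voom on the read numbers. At an unadjusted p under 0.05 there was 1 member, Cdh5 (log2 fold change -2.37, standard error 0.95, adjusted p = 1), and there were 166 of all genes. The lines moved differently. In mThy14, 32 members were lower and 8 higher at late passage, and in mThy16, 15 were lower and 26 higher. Members lower at late passage in both lines numbered 10, and 4 were higher in both, Pecam1, Tek, Emcn and Prox1. The shares of all genes were not computed for these counts. Over all genes tested the median log2 difference, late minus early, was -0.04 in mThy14 and 0.01 in mThy16. Some of the directions rest on few reads, with at most 2 in any TFCO library for Clec14a, 5 for Ecscr, 7 for Mmrn1 and 8 for Emcn. Sox17 went from 1862 to 333.1 normalized counts in mThy14 and from 1068 to 1186 in mThy16, and Kdr from 80.1 to 380.9 in mThy14 and from 243.6 to 176.6 in mThy16. Each of these steps rests on 1 library per line and passage.

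Of 20 listed ligands and coreceptors, 3 were lower in TFCOs than in thyroid and 0 higher, with a median log2 fold change of -1.25. Over all genes 3.05% were lower and 0.599% higher, with a median of 0.05. Vegfc, the ligand of Flt4, had 64.7, 0.99, 0 and 0 in TFCOs and 197 and 259 in thyroid and was called (log2 fold change -6.07, standard error 0.96, adjusted p = 0.0209), as were the Notch ligand Dll4 (log2 fold change -3.77, standard error 0.54, adjusted p = 0.0154) and Acvrl1 (log2 fold change -4.19, standard error 0.43, adjusted p = 0.00653), the BMP receptor that works with Eng. Vegfa, the main ligand of Kdr and Flt1, had 16572, 6024, 8444 and 4742 in TFCOs, 20003 and 10620.1 in thyroid and 8254 and 12338 in lung. Vegfa overlapped between TFCOs and thyroid and was not called (log2 fold change -0.87, standard error 0.62, adjusted p = 0.452). Nrp1, a VEGF coreceptor that epithelial cells also express, had 8543, 3952, 2099 and 3346 in TFCOs, 1299.8 and 1908 in thyroid and 5014 and 7459 in lung. All TFCO libraries were above both thyroid tissues without a call (log2 fold change 1.32, standard error 0.40, adjusted p = 0.145), and Nrp1 was lower in thyroid than in lung (log2 fold change -1.96, standard error 0.40, adjusted p = 0.038).

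Of 36 further endothelial genes, 8 were lower in TFCOs than in thyroid and 0 higher, with a median log2 fold change of -2.16. They were Adgrl4, Tm4sf1, Mef2c, Myct1, Fli1, Arhgef15, Thbd and Klf2. Over all genes 3.05% were lower and 0.599% higher, with a median of 0.05. Fli1, an ETS factor of endothelium and blood cells, had 7.03, 16.8, 11.4 and 31.3 in TFCOs and 191 and 201 in thyroid (log2 fold change -3.67, standard error 0.66, adjusted p = 0.0328). Aqp1, a water channel of endothelium and of many epithelia, had 484, 981, 3105 and 732 in TFCOs and 291 and 2635 in thyroid. Its values overlapped and it was not called (log2 fold change 0.22, standard error 0.92, adjusted p = 0.907). Between thyroid and lung, 6 of the 36 were lower and 0 higher, namely Pdpn, Gja5, Tspan7, Foxf1, Thbd and Rasip1. In the same comparison 4 of the 20 ligands and coreceptors were lower, namely Vegfd, Angpt1, Nrp1 and Acvrl1. The shares of all genes there were 3.16% lower and 2.89% higher. Of the mural genes, 4 of 10 were lower in TFCOs than in thyroid (Rgs5, Des, Kcnj8 and Abcc9), of the leukocyte genes 3 of 12 (Ptprc, Csf1r and Mrc1), of the fibroblast genes 6 of 6 and of the platelet genes 0 of 9. The share of all genes lower in TFCOs than in thyroid was 3.05%.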

How the data were processed

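RNA of 8 mouse libraries was measured, 2 each of early TFCOs, late TFCOs, thyroid tissue and lung tissue, grouped by the labels. The authors deposited 1 table of normalized counts for 16119 genes (unit: a signal per gene, read counts divided by a size factor of each library), and their methods name a stranded polyA kit, the mouse genome and DESeq2, whereas the labels describe an adapted CEL-Seq protocol. The submitters' processing notes list BWA 0.6.2-r126, hg38 and mm10, with no role given. The values were whole multiples of 1 step per library, from 0.674 to 1.41. Depth was 9755081 to 16904865 reads on genes per library, and floors of 3 reads cover counting error only.

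Values were analysed as log2(normalized count + 1) with limma 3.58.1 in R 4.3.3 (mean-variance trend, Benjamini-Hochberg adjustment) over 14703 genes with 10 or more in at least 2 libraries. The fits were tested on simulated data. A fold change on this scale understates the change of weakly counted genes. The 2 passages of a line were averaged for comparisons with tissue, and comparisons of 3 kinds of sample share libraries and 1 estimate of the spread. An exact permutation test of 2 against 2 libraries cannot give a two-sided p below 0.333 and was not used. Early and late libraries of a line are paired, since they come from the same organoid line, and the differences between the lines at both passages correlated across genes (r = 0.477).

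The members and the gene lists were chosen with earlier results of these data known. Values per library are given for members called in either tissue comparison, for those with 25 or more reads in a TFCO library and for those at 0 in a tissue library, and the other members are given by range. Genes that are no members come from the lists or are named where a result turns on them. Promoters are from RefSeq (GRCm38.p6) and gene positions from GENCODE M21. Alternatives were the pseudocount, the filter, the scaling, the trend, the libraries in the fit, a replicate block and each library left out. The library set as a term and voom on the read numbers were added after the data were seen.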

Additional observations from a re-analysis of the deposited data

Results flagged for a closer look

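Over the 42 members, the median log2 difference between late and early TFCOs was -0.86 in line mThy14 and 0.35 in line mThy16, so that the lines moved in opposite directions, each in its only pair of libraries. The difference between the lines was not tested. Over all genes tested the medians were -0.04 and 0.01. Among the 19 members with 25 or more reads in a TFCO library the medians were -0.30 and 0.35.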

How the results depend on the processing

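Of the alternatives tried on the 21 members called between TFCOs and thyroid tissue and the 13 called between thyroid and lung, none turned a direction, and Eng, Ptprb and Tie1 were called under all 18 alternatives to the first comparison. For TFCOs against thyroid (21 members and 536 genes called), the members called were 8 with the library set as a term, 13 with no trend, 4 with only the 2 groups compared, 8 by voom on the read numbers and 8 to 36 with each library left out. The genes called were 1322 with the 4 TFCO libraries as separate samples, 178 with the set as a term, 124 with only the 2 groups, 232 by voom and 153 to 4085 with each library left out. For thyroid against lung (13 and 889), the members called were 5 with the set as a term, 7 with no trend, 6 with only the 2 groups and 0 to 28 with each library left out, and the genes were 277 with only the 2 groups and 58 to 4311 with each library left out. For TFCOs against lung (37 and 3435), the members called were 10 with the set as a term and 16 to 38 with each library left out, and the genes were 6625 with the TFCO libraries as separate samples, 174 with the set as a term, 6979 with only the 2 groups and 248 to 6986 with each library left out. For late against early TFCOs, 0 to 2 genes were called with each library left out, against 0 with all. The libraries whose omission moved a count of genes by over 1.5 times were thyroid tissues 1 and 2 and lung tissues 1 and 2 for TFCOs against thyroid (4085, 161, 156 and 153 genes) and for TFCOs against lung (6986, 6979, 319 and 248), thyroid tissue 2 and lung tissues 1 and 2 for thyroid against lung (4311, 58 and 58), and late mThy16 for late against early TFCOs (2). With no trend, the genes called were 481 for TFCOs against thyroid and 900 for thyroid against lung. With the set as a term, the genes called for thyroid against lung were 829. The causes of these changes were not tested.

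With the line as a replicate block, 0 members and 0 genes were called between late and early TFCOs, as without it. The tissue numbers share only a number (correlation of the number differences across genes of -0.07), and with that number as a replicate block 6 members and 226 genes were called between thyroid and lung. Quantile normalization moved the median log2 fold change of all genes to 0.17, 0.14 and 0.32 for TFCOs against thyroid, thyroid against lung and TFCOs against lung, and that of the members to -3.21, -2.84 and -7.11. The planned count models were not run, since normalized values and not the counts themselves were deposited. Of the fits, only voom used the read numbers, which were worked out from the step of each library. With 2 libraries a group, a member that was not called is not shown to be unchanged, and below 3 reads a level cannot be told from 0.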
